A study of Mus musculus with 7 samples.

Results

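The 35 genes described here encode the machinery of glycolysis, from glucose uptake to lactate export, and the oxygen-sensing pathway that regulates it, together with targets of that pathway. They were listed by gene symbol, with earlier results of these data known though by no threshold on a measured value, out of 50686 genes listed for each library. All 35 were found and all 35 passed the filter of more than 10 expected counts in at least 1 library. Of these, 33 lie on autosomes and were tested in the fit of 17559 genes, whereas Pgk1 and Pdk3 lie on chromosome X and were tested in the same kind of fit with the sex chromosomes and the mitochondrial genome kept.

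RNA was sequenced from microglia, the resident immune cells of the brain, of 4 young (3 to 4 months) and 3 old (21 to 22 months) male C57BL/6 mice, 1 library per mouse. Under isoflurane anaesthesia, with buprenorphine as analgesic, all 7 mice had had the right middle cerebral artery occluded for 45 min and reopened 4 days before, so that there was no sham or untreated group here. In both ages the cells were sorted from the forebrain by FACS as cells stained for CD11b and CD45 that were Bodipy+, that is, rich in the neutral lipids of lipid droplets. Bodipy- cells were not analysed here. Young mice carry the codes 14C, 18C, 23C and 29C and old mice the codes 2posI, 3posI and 4posI, and the values of single libraries are given in that order throughout.

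In glycolysis, glucose enters through facilitative transporters, is trapped as glucose 6-phosphate by hexokinases, committed by phosphofructokinase and split into trioses that yield ATP and pyruvate. Pyruvate is either oxidized in mitochondria, unless pyruvate dehydrogenase kinases block that entry, or reduced to lactate by lactate dehydrogenase and exported with a proton by monocarboxylate transporters. Oxygen sets the balance through hypoxia-inducible factor (HIF): prolyl hydroxylases of the Egln family mark the HIF alpha subunits when oxygen is present, Vhl recruits the ubiquitin ligase that destroys them, and without oxygen they accumulate and drive glycolytic genes. Myeloid cells also raise glycolysis, and Hif1a with it, when they are activated by inflammatory signals.

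HIF recognises a short DNA core, ACGTG or GCGTG, in promoters and enhancers. RefSeq promoter windows of 300 bases (250 before the transcription start and 50 after it, GRCm38.p6) were matched for 31 of the 35 genes, using for each gene the start nearest to its annotated 5′ end. Slc2a3, Epas1, Bnip3l and Ndrg1 had no entry. With both strands searched, so that a palindromic CACGTG counts once on each strand, ACGTG was present in 20 of the 31 windows (64.5%), against 19.6% of all 32851 windows of the same length. Either core was present in 25 of 31 (80.6%), against 43.8%. These shares describe letters and not binding, and they were not adjusted for base composition. The list holds known HIF targets by choice, so the higher share is no finding about these data. Each of the 31 genes entered with 1 window, whereas all windows of every gene entered the 32851. The 250 bases before the start are shown for the main glucose and lactate transporters, for the regulatory enzyme Pfkfb3 and for Egln1, the genes to which the results below return most often, with both cores in capitals, also where they read as CACGT or CACGC from the other strand. RefSeq starts can lie inside the gene bounds of GENCODE that are given further on.
Slc2a1, chr4:119108495-119108744, plus strand: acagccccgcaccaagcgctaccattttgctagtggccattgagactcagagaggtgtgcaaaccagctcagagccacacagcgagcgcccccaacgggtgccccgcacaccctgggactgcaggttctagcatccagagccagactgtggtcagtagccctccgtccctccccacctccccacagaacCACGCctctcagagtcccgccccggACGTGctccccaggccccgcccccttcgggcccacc
Slc16a3, chr11:120948817-120949066, plus strand: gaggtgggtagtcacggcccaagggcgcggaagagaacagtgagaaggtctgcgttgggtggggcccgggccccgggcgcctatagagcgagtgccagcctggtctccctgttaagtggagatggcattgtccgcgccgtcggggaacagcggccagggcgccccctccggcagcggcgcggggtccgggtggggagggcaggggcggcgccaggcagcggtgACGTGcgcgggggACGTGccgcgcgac
Pfkfb3, chr2:11553930-11554179, minus strand: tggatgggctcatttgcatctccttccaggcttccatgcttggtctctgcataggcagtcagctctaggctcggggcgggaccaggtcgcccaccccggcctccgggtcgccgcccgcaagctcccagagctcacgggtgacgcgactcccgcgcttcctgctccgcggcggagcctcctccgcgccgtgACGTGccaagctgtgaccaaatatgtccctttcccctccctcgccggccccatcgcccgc
Egln1, chr8:124949255-124949504, minus strand: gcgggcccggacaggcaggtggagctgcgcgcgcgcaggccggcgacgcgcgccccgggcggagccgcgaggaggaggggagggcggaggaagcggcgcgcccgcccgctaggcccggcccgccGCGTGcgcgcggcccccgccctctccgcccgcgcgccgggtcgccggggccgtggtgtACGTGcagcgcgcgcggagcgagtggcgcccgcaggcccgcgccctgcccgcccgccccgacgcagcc
Counting the start as position 1, the cores begin at -61 and -36 in Slc2a1, at -27 and -14 in Slc16a3, at -60 in Pfkfb3 and at -126 and -68 in Egln1. Egln1, which is itself a known HIF target, holds 1 ACGTG and 1 GCGTG, as Slc2a1 does, whereas Slc16a3 holds 2 ACGTG. Whether the cores bear on the levels given below was not tested.

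Libraries held 36574083 to 53002386 expected counts. Microglial markers were abundant in all of them (11 markers, together 14684 to 21486 TPM in the young mice against 7168 to 16148 TPM in the old), and TPM, which corrects for transcript length and is scaled to the same total in each library, is the level used here to compare genes with each other. A pair of libraries stood apart within their ages. Old mouse 3posI had the lowest microglial sum and the highest monocyte sum (2099 TPM over 8 markers, against 66.1 to 182 TPM in the 6 other libraries), and 3posI and young 23C had the lowest P2ry12 of their ages, a marker of homeostatic microglia (239 and 356 TPM, against 904 to 1476 TPM in the 5 other libraries). The 10 endothelial and pericyte markers together reached 54.3 to 126 TPM in the young mice against 38.8 to 52.0 TPM in the old, so that the ages did not overlap. Neutrophil, astrocyte, oligodendrocyte and neuron sums overlapped between the ages. Border macrophage markers were highest in 3posI (1292 TPM, against 155 to 454 TPM elsewhere), and 10 lymphocyte markers together stayed at 5.97 TPM or less in every library.

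Egln1 was the only one of the 35 genes that passed an adjusted p of 0.05 (quasi-likelihood test of edgeR, adjusted over all genes by Benjamini-Hochberg), and it was higher in old mice. None passed in the other direction. Among all genes tested, 0.570% passed as higher and 0.233% as lower in old mice. Before adjustment, 7 of the 35 had a p under 0.05, near the share of all genes, 18.9%. In CPM, counts scaled by library size and TMM factors, old and young mice shared no range of values for Slc2a1, Slc2a3, Pfkm, Pfkfb3 and Slc16a3, which lay lower in old mice (5 of 35, 14.3%, against 9.07% of all genes), and for Egln1, which lay higher (1 of 35, 2.86%, against 8.67%). The log2 fold change of old versus young was below 0 in 21 genes and above 0 in 14, with a median of -0.10 against -0.01 over all genes, and its size was under 0.5 in 27. DESeq2, which made more calls on these libraries, called Slc2a1, Slc2a3, Pfkm, Slc16a3 and Egln1, 5 of 35, where it called 7.97% of all genes.

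**Figure D1:**
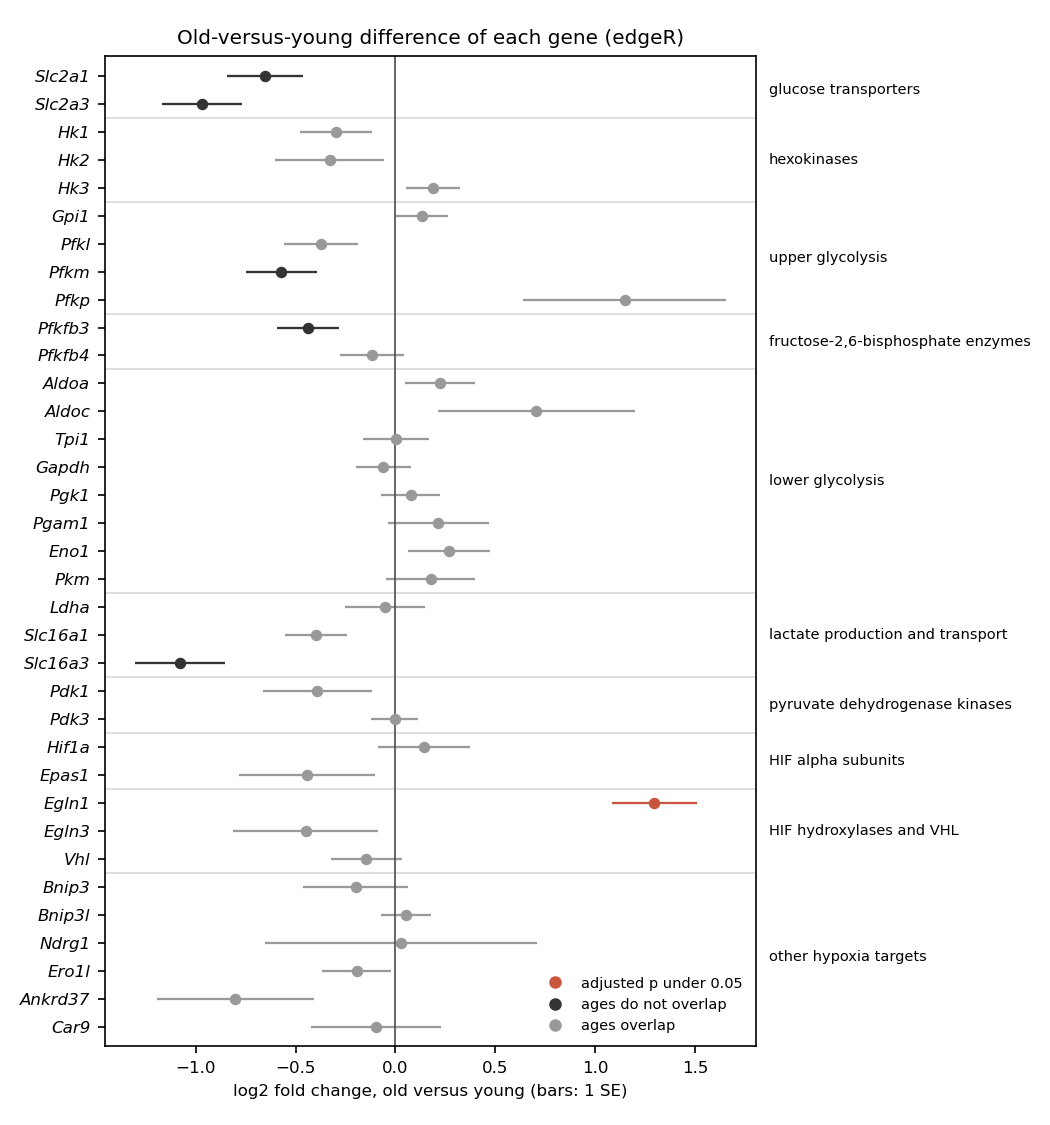
Log2 fold change of old versus young (x axis, bars 1 SE, edgeR) for the 35 genes, ordered by role (y axis). Egln1, in red, is at 1.30, while the 5 genes in black between -1.08 and -0.44 are those whose old libraries all lay below the young ones; Gpi1 and the 8 genes Aldoa, Tpi1, Gapdh, Pgk1, Pgam1, Eno1, Pkm and Ldha lie between -0.06 and 0.27.

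Both glucose transporters of the group lay lower in old mice. Slc2a1 (GLUT1; chr4:119108711-119137983, plus strand) is the main carrier of basal glucose uptake and is also the transporter of the blood-brain barrier. Its level was 204, 175, 155 and 199 CPM in young mice and 85.8, 144 and 120.4 CPM in old mice, or 183 ± 22.9 CPM (SD, n = 4) against 117 ± 29.0 CPM (SD, n = 3). Every old library was below every young one, 3posI coming nearest, but the difference did not pass the test (log2 fold change -0.65, SE 0.19, adjusted p = 0.132, edgeR). Slc2a3 (GLUT3; chr6:122727809-122801640, minus strand), a transporter of high glucose affinity known from neurons and leukocytes, stood at 13.3, 12.1, 15.5 and 13.1 CPM in young mice and at 5.78, 6.06 and 8.87 CPM in old mice. Its ages were well apart, with a fitted level in old mice of 0.511 times that in young mice (log2 fold change -0.97, SE 0.20, adjusted p = 0.066, edgeR). Leaving out 1 library at a time gave -1.20 to -0.86 and adjusted p values of 0.0496 to 0.187 (edgeR). Only the fit without old mouse 4posI brought Slc2a3 past the threshold (-1.20, adjusted p = 0.0496). In TPM, Slc2a1 exceeded Slc2a3 in every library, at 51.2 to 137 against 1.95 to 7.92.

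The summed endothelial markers, like Slc2a1, were lower in every old library. Of the 10 markers, Slco1a4 (adjusted p = 0.028, edgeR), Pecam1 and Ly6c1 lay lower in every old library in CPM and the other 7 overlapped, of which Kcnj8 (1.84), Kdr (0.56) and Rgs5 (0.31) had log2 fold changes above 0. Cldn5 ranged from 10.6 to 60.5 TPM over the 7 libraries, and no marker was at 0 in any library. Their part in the Slc2a1 values was not tested, and in bulk RNA fewer cells of a type cannot be told apart from less RNA per cell.

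**Figure D2:**
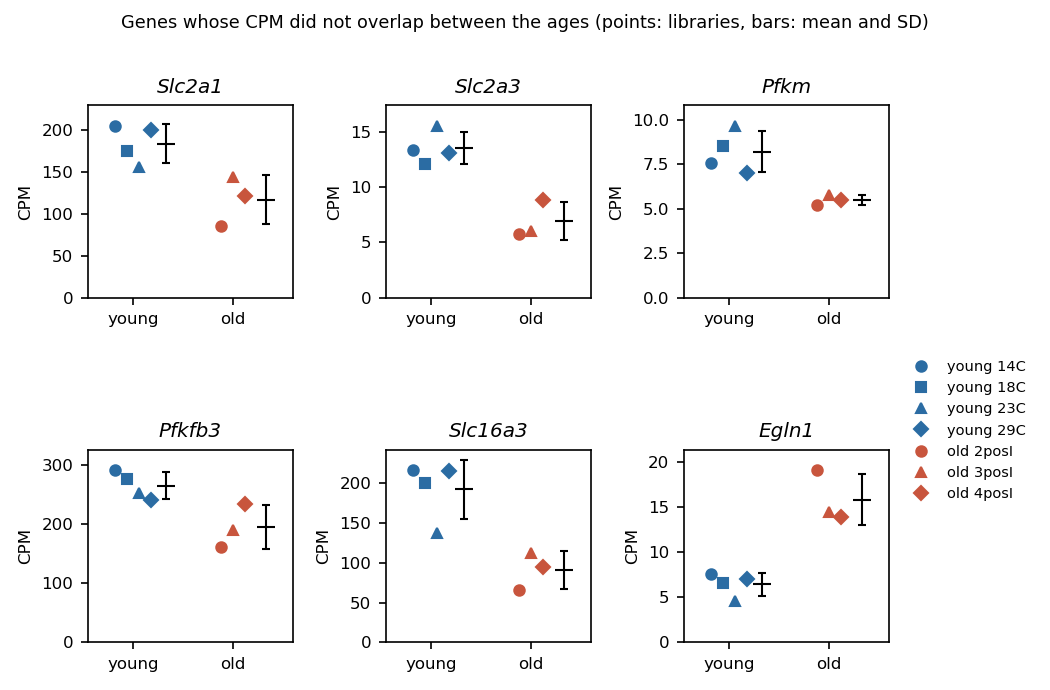
CPM per library (y axis, from 0) of the 6 genes whose ages did not overlap, young mice at left and old mice at right, with the mean and SD as black bars. In the first 5 panels all old libraries lie below all young ones, and in the panel of Egln1 the old libraries, at 13.9 to 19.0 CPM, lie above the young ones, at 4.59 to 7.56 CPM.

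The hexokinases, which phosphorylate glucose on entry, did not separate the ages. Hk2, the inducible form bound to mitochondria and a HIF target, was at 167, 197, 96.3 and 172 CPM in young and 154, 86.5 and 137 CPM in old mice (log2 fold change -0.33, SE 0.27, adjusted p = 0.543, edgeR). The lowest library of each age, 23C and 3posI, was the library with the lowest P2ry12 of that age. Hk3, a form found mainly in myeloid cells, showed the reverse order, with 138, 125, 169 and 139 CPM in young and 153, 174 and 159.7 CPM in old mice and the highest value of each age in 23C and 3posI (0.19, SE 0.13). Hk1, the constitutive form, was at 28.5, 28.2, 24.3 and 21.0 CPM in young and 17.1, 25.6 and 19.5 CPM in old mice (-0.30, SE 0.18). In TPM the order was Hk3 and Hk2, which crossed between libraries, above Hk1 (5.27 to 10.3 TPM).

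Among the transcripts of phosphofructokinase, the committing step, that of Pfkl, its liver-type subunit, was the most abundant. Pfkl stood at 266, 225, 176 and 289 CPM in young and 203, 188 and 163 CPM in old mice (log2 fold change -0.37, SE 0.18, adjusted p = 0.314, edgeR). The ages overlapped in CPM through 23C, but in TPM all old libraries (92.9, 88.4 and 88.6) were below all young ones (151, 135, 98.1 and 152), the effective length that enters TPM being longer in old mice. Pfkm, the muscle-type subunit (chr15:98092589-98132451, plus strand), was scarce, with 7.60, 8.52, 9.67 and 7.03 CPM in young and 5.24, 5.80 and 5.53 CPM in old mice. Its ages did not overlap, and the difference did not pass the test (log2 fold change -0.57, SE 0.18, adjusted p = 0.154, edgeR). Exons of Pfkm overlap those of Senp1 on the other strand, which had 6448 counts over the 7 libraries against 2211 for Pfkm. The libraries are labelled non-stranded, and counts of Pfkm were whole numbers in all 7. Pfkp, the platelet-type subunit, was at 13.1, 5.12, 14.6 and 7.31 CPM in young and 10.5, 41.4 and 14.7 CPM in old mice (log2 fold change 1.15, SE 0.51, adjusted p = 0.269, edgeR). Its high value was in 3posI alone, and without that library the log2 fold change was 0.33, the library also being the one rich in monocyte markers, whose part was not tested. Exons of Pfkp also overlap those of a gene on the other strand, Pitrm1, which had 13233 counts over the 7 libraries against 4567 for Pfkp. Counts of Pfkp were whole numbers in 0 of the 7 libraries. Gpi1, which converts glucose 6-phosphate to fructose 6-phosphate, was at 194 to 256 CPM (0.13, SE 0.13).

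The bifunctional Pfkfb enzymes make and break down the sugar bisphosphate that activates phosphofructokinase. Pfkfb3 (chr2:11471433-11554077, minus strand), the strongly glycolytic and inducible form, was at 292, 276, 254 and 241 CPM in young mice and 162, 191 and 235 CPM in old mice, with mean levels of 266 ± 22.7 CPM (SD, n = 4) and 196 ± 36.8 CPM (SD, n = 3). The highest old library, 4posI, came close to the lowest young one, 29C, and the difference did not pass the test (log2 fold change -0.44, SE 0.16, adjusted p = 0.185, edgeR). In TPM the ages overlapped, with 4posI at 101 and 29C at 96.4 TPM. Pfkfb4, a related form with stronger phosphatase activity, was at 62.1, 60.3, 42.0 and 56.2 CPM in young and 46.9, 47.0 and 58.6 CPM in old mice and did not separate the ages (-0.12, SE 0.16).

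The transcripts of the enzymes that lead from aldolase to pyruvate showed no difference past the test. Pkm, Aldoa and Eno1 had the highest mean TPM of the 35 genes. Pkm, pyruvate kinase, was at 1029, 781, 1259 and 1060.1 TPM in young and 987, 1314 and 969.7 TPM in old mice. Aldoa, the main aldolase, was at 959, 762, 910.4 and 993 TPM and 967, 1086 and 922 TPM in the same order. Eno1, enolase, followed at 875, 679, 888 and 969 TPM and 976, 1086 and 827 TPM. For each of these 3 genes the ages overlapped and 3posI was the highest library, with log2 fold changes of 0.18 (SE 0.22), 0.22 (SE 0.18) and 0.27 (SE 0.21). Tpi1, triose phosphate isomerase, was at 273 to 389.6 TPM (0.00, SE 0.17), Pgam1, phosphoglycerate mutase, at 232 to 463 TPM (0.21, SE 0.25) and Pgk1, phosphoglycerate kinase, at 122 to 155 TPM (0.08, SE 0.15). The direction of Tpi1, Pgk1, Pgam1 and Gapdh was not stable, since each changed sign under at least 1 alternative. Gapdh, at 139 to 218 TPM (-0.06, SE 0.14), has exons that overlap those of Iffo1 on the other strand, which non-stranded reads cannot tell apart. Of the genes with near-identical copies named after them, among which reads can be split, Bnip3l had 43543 counts over the 7 libraries against 3599 for its copy, Pgam1 122102 against 2547 for its copies and Gapdh 25790.0 against 19.8. Copies under other names were not searched for. Gapdh counts were whole numbers in 0 of the 7 libraries, so some of its reads were divided with other genes. Its level is uncertain to that extent. The same held for Gpi1, Pfkp, Aldoa, Pgk1, Pgam1, Eno1, Pkm, Ldha, Hif1a and Bnip3l, which with Gapdh were 11 of the 35 genes. Aldoc, the brain-type aldolase, was low, with 7.19, 9.53, 11.4 and 7.53 CPM in young and 27.7, 11.3 and 4.66 CPM in old mice. Its old libraries spanned a wider range than the young ones on both sides, and without 2posI its log2 fold change turned from 0.71 (SE 0.49) to -0.16. Over the 35 genes together, TPM added up to 5206 to 6241 in the young mice against 5386 to 6717 in the old, with overlap.

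**Figure D3:**
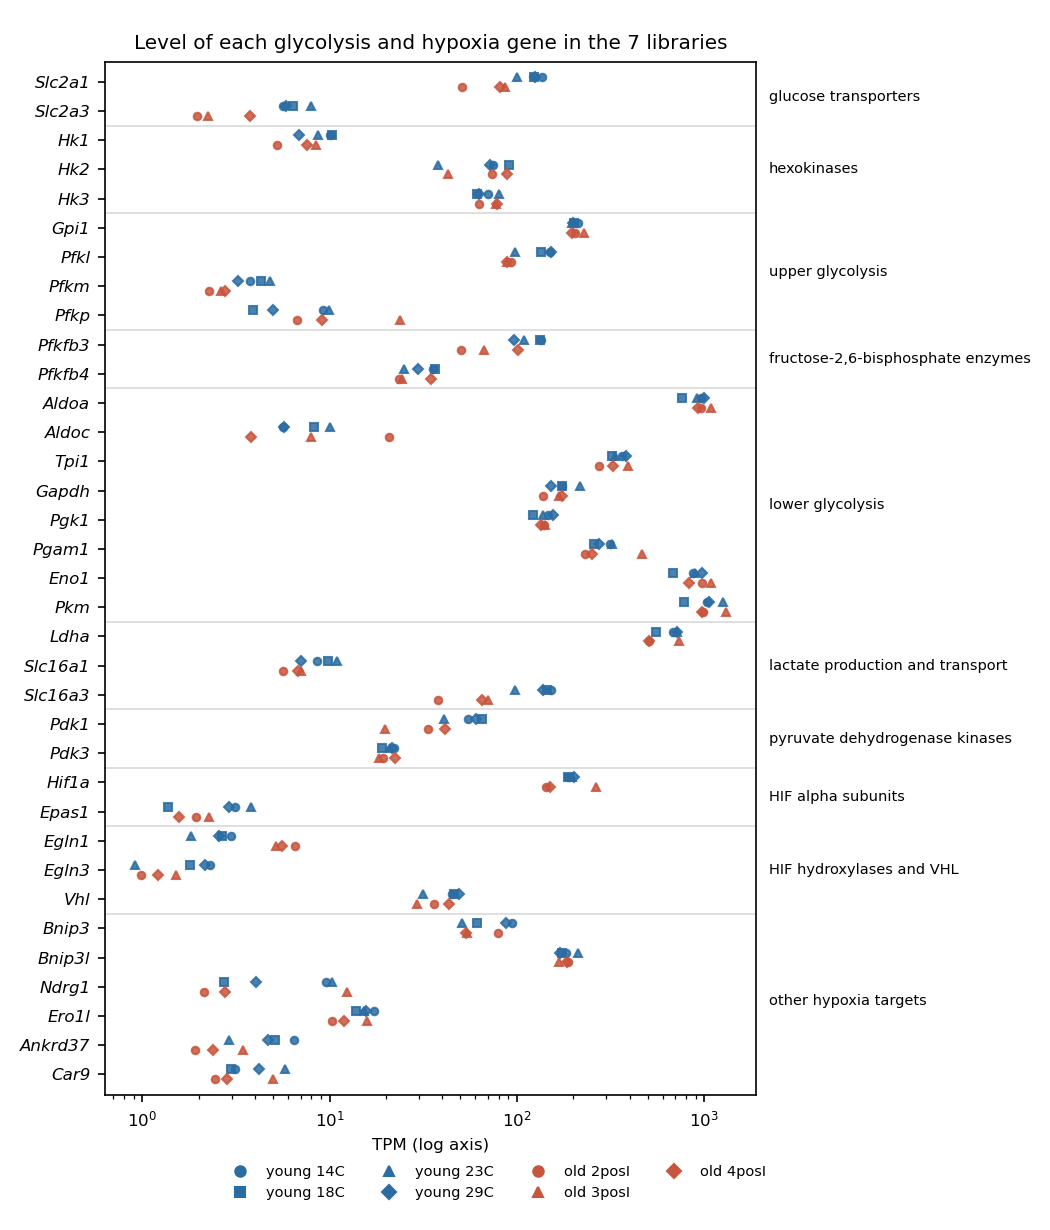
TPM (x axis, log scale) of each of the 35 genes in the 7 libraries, young in blue and old in red, ordered by role. Pkm, at 781 to 1314 TPM, is far to the right and Egln3, at 0.910 to 2.29 TPM, far to the left. The young and old points are mixed for most genes and apart for Slc2a1, Slc2a3, Pfkl, Pfkm, Slc16a1, Slc16a3 and Egln1. For Slc16a1 the margin is small, with 7.03 TPM in the highest old library and 7.06 TPM in the lowest young one.

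Among the transcripts of lactate production and transport, that of the exporter Slc16a3 had the lowest log2 fold change of the whole group, and none passed the test. Slc16a3 (MCT4; chr11:120948480-120960868, plus strand), the exporter of highly glycolytic cells and a HIF target, was at 216, 200.2, 137 and 215 CPM in young mice and 65.8, 113 and 94.2 CPM in old mice. All old libraries were below all young ones, with means of 192 ± 37.1 CPM (SD, n = 4) and 90.9 ± 23.6 CPM (SD, n = 3) and a fitted level in old mice of 0.473 times that in young mice. The difference just missed the threshold (log2 fold change -1.08, SE 0.23, adjusted p = 0.0681, edgeR). Leaving out 1 library at a time gave -1.26 to -0.89 and adjusted p values of 0.0544 to 0.192, and without 23C and 3posI together it was -1.39 (adjusted p = 0.025). Slc16a1 (MCT1), which carries lactate and pyruvate in either direction, was at 26.9, 30.0, 33.9 and 23.6 CPM in young and 20.1, 24.2 and 20.8 CPM in old mice, where only 3posI reached into the range of the young (log2 fold change -0.40, SE 0.15, adjusted p = 0.215, edgeR). Ldha, which makes lactate from pyruvate, was abundant and overlapped, at 509.9 to 733 TPM (-0.05, SE 0.20).

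Pyruvate dehydrogenase kinases close the mitochondrial route for pyruvate. Pdk1, the HIF-induced form, was at 97.3, 109, 67.6 and 105 CPM in young and 94.0, 42.8 and 80.3 CPM in old mice (log2 fold change -0.39, SE 0.27, adjusted p = 0.469, edgeR). As for Hk2, 23C and 3posI were the lowest libraries of their ages. Pdk3 was at 32.7, 27.2, 30.8 and 34.1 CPM in young and 32.3, 29.7 and 31.3 CPM in old mice (-0.00, SE 0.12).

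In the oxygen-sensing branch the prolyl hydroxylase Egln1 (PHD2; chr8:124908587-124949324, minus strand), the main oxygen sensor that marks HIF for destruction, was higher in old mice. Its level was 7.56, 6.60, 4.59 and 6.97 CPM in young mice and 19.0, 14.4 and 13.9 CPM in old mice. No old library reached into the young range, and the means were 6.43 ± 1.29 CPM (SD, n = 4) and 15.8 ± 2.83 CPM (SD, n = 3), a fitted 2.45-fold higher level (log2 fold change 1.30, SE 0.21, adjusted p = 0.0401, edgeR). The transcript was rare, at 2.98, 2.68, 1.83 and 2.57 TPM in young and 6.57, 5.16 and 5.59 TPM in old mice, but its counts were whole numbers in all 7 libraries, the deposited annotation holds 1 transcript for it, and no exon of another gene overlaps it. The call did not hold without most single libraries, and most of those fits called few genes of any kind. Over all genes, 141 were called with all 7 libraries. It was 1 without 14C, 1 without 18C, 14 without 23C, 2 without 29C, 1 without 2posI, 85 without 4posI and 159 without 3posI. The log2 fold change of Egln1 stayed between 1.14 and 1.39 when 1 library was left out, while the adjusted p was 0.121 without 14C, 0.118 without 18C, 0.0658 without 23C, 0.0971 without 29C, 0.122 without 2posI and 0.0585 without 4posI, and 0.0447 without 3posI. On log2(TPM + 1) it was 0.95 with an adjusted p of 0.0831 (limma).

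The rest of the branch did not follow Egln1 past the test. Egln3, a hydroxylase that is itself induced by hypoxia, was at 4.29, 3.24, 1.69 and 4.32 CPM in young and 2.09, 3.12 and 2.22 CPM in old mice (log2 fold change -0.45, SE 0.36, adjusted p = 0.534, edgeR). Its 3 old libraries lay within the young range, whose lowest value was that of 23C. Hif1a, the HIF alpha subunit of most cells, was at 494, 485, 516 and 604 CPM in young and 490.2, 825 and 423 CPM in old mice (log2 fold change 0.14, SE 0.23, adjusted p = 0.775, edgeR). The value in 3posI was above all others and the 2 other old libraries spanned the lower end, so that without 3posI the log2 fold change turned to -0.20. Epas1, the subunit best known from endothelium, was at 11.8, 5.03, 14.2 and 11.7 CPM in young and 8.34, 9.46 and 5.79 CPM in old mice, low throughout (-0.44, SE 0.34). Vhl was at 51.3 to 81.1 CPM and overlapped (-0.15, SE 0.18).

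Of 6 further genes that hypoxia is known to induce, none passed the test and in none were the ages apart. Bnip3 and Bnip3l, receptors for the removal of mitochondria by autophagy, were at 51.1 to 94.2 and 167 to 211 TPM, with log2 fold changes of -0.20 (SE 0.26) and 0.05 (SE 0.12). Ero1l, an oxidase that forms disulfide bonds in the endoplasmic reticulum, was at 10.3 to 17.2 TPM (-0.19, SE 0.17). Ankrd37, a small ankyrin-repeat protein, was at 3.83, 2.75, 1.49 and 2.80 CPM in young and 1.07, 2.15 and 1.45 CPM in old mice (log2 fold change -0.80, SE 0.39, adjusted p = 0.312, edgeR), with 23C inside the old range and with exons that overlap those of the far more counted Ufsp2. Ndrg1 was the most variable gene of the group (SE 0.68), at 15.0, 4.45, 12.7 and 6.24 CPM in young and 4.17, 21.8 and 3.33 CPM in old mice. It was highest in 3posI, and without that library its log2 fold change went from 0.03 to -1.36 (adjusted p = 0.21, edgeR). Car9, a carbonic anhydrase that handles the acid of glycolysis, was at 2.44 to 5.75 TPM (-0.10, SE 0.33).

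The balance within sets of related enzymes was compared as shares of their summed TPM, which do not depend on library scaling. Egln1 made up 56.5, 60.0, 66.8 and 54.3% of Egln1 plus Egln3 in young mice and 87.0, 77.4 and 82.2% in old mice, a mean of 59.4% ± 5.44 (SD, n = 4) against 82.2% ± 4.83 (SD, n = 3). The ages were apart here, although Egln3 was scarce, at 0.910 to 2.29 TPM. Egln2, which belongs to the same family, was listed among the HIF partners and regulators and was not part of this share. Pdk1 made up 71.3, 77.4, 65.9 and 73.7% of Pdk1 plus Pdk3 in young and 63.6, 51.8 and 64.8% in old mice, and Pfkfb3 79.1, 78.4, 81.4 and 76.4% of Pfkfb3 plus Pfkfb4 in young and 68.3, 73.1 and 74.4% in old mice. In TPM both of these shares were lower in every old library, though Pdk1 and Pfkfb3 were also genes whose effective length was longer in old mice, which lowers TPM. In CPM the means were 74.8% and 68.5% for Pdk1 and 82.9% and 79.3% for Pfkfb3, in young and old mice, and the ages overlapped for Pdk1, with 74.4% in old 2posI against 68.7% in young 23C, but not for Pfkfb3. The other shares overlapped between the ages. Slc2a1 supplied 92.6% to 97.4% of its pair, Aldoa 97.9% to 99.6%, Hif1a 98.1% to 99.3% and Slc16a3 87.1% to 95.2%. Pfkl supplied 77.1% to 94.9% of phosphofructokinase, lowest in 3posI, where Pfkp reached 20.6%. The Hk2 share of Hk1, Hk2 and Hk3 was lowest in the libraries low in P2ry12, with 29.8% in 23C and 33.3% in 3posI against 48.1% to 55.8% in the 5 other libraries.

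**Figure D4:**
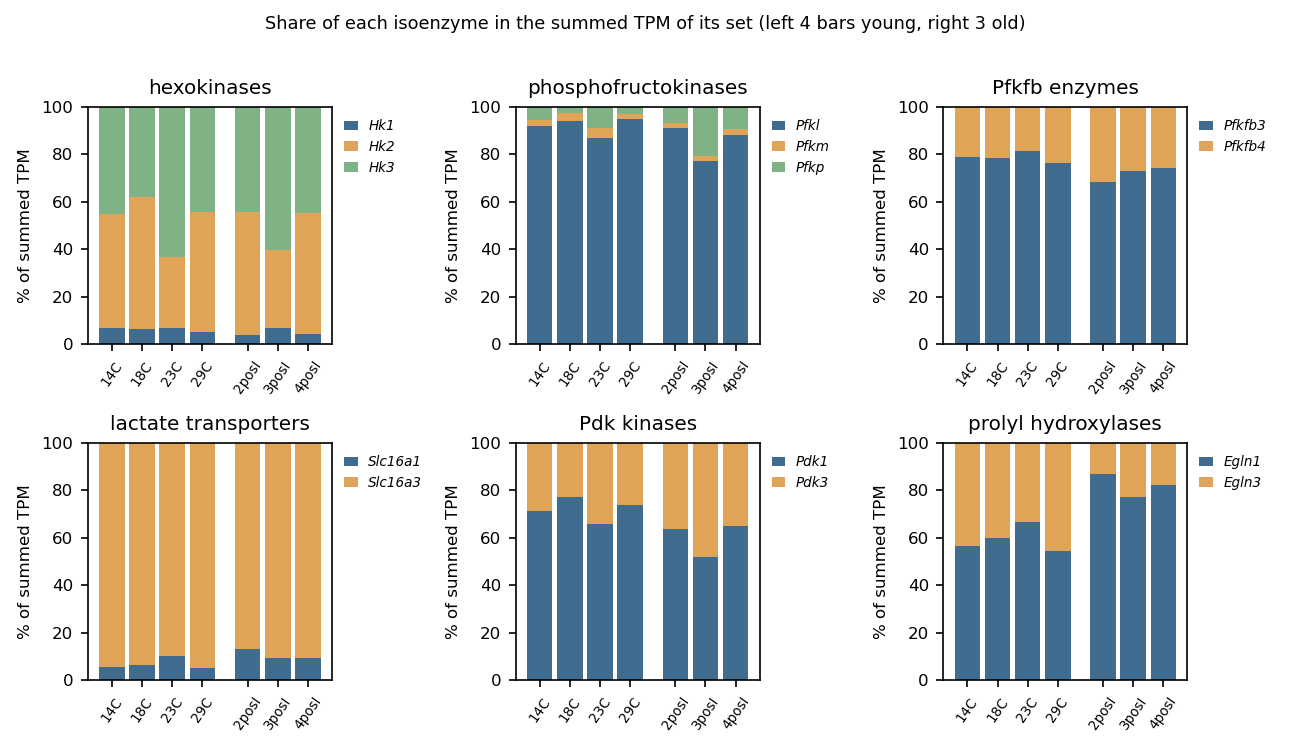
Share of each gene in the summed TPM of its set (y axis, percent) in the 7 libraries, with the 4 young mice at left and the 3 old mice at right of each panel. The Egln1 share is 54.3% to 66.8% in the young mice against 77.4% to 87.0% in the old, and the Hk2 share is smallest in 23C and 3posI.

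RSEM also estimates for each gene an effective length, the mean length of its transcripts weighted by their estimated abundance and corrected for fragment size, which moves when the mix of transcripts moves. It varied by more than 1 base between libraries for 29 of the 35 genes. In 8 of the 29 (27.6%) the ages did not overlap, against 19.4% of the 11686 tested genes with a variable length. It was shorter in old mice for Hk2 and longer for Pdk1, Pfkfb3, Slc2a3, Hif1a, Pfkl, Slc16a3 and Ldha. The effective length of Hk2 was 3146, 3125, 3588 and 3126 bases in young and 2576, 2558 and 2197 bases in old mice. The annotation holds for Hk2 coding transcripts of 5513 and 2792 bases with 18 exons each. For Pdk1 it was 2467, 2428, 2345 and 2279 bases in young and 3421, 2764 and 2786 bases in old mice, the only coding transcript having 5185 bases. Pfkfb3 went from 3018, 2999.9, 3286 and 3264 to 3924, 3662 and 3323 bases and Slc2a3 from 3302, 2747, 2769.7 and 2945 to 3621, 3419 and 3364 bases. Margins were smaller for Hif1a, Pfkl, Slc16a3 and Ldha, with ratios of the age means of 1.03 to 1.08. These lengths come from short reads of amplified cDNA, and single transcripts were not measured. With the effective length as an offset in edgeR, Slc2a3 passed the threshold (-1.20, adjusted p = 0.0478) beside Egln1, while the log2 fold change of Hk2 turned to 0.08.

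**Figure D5:**
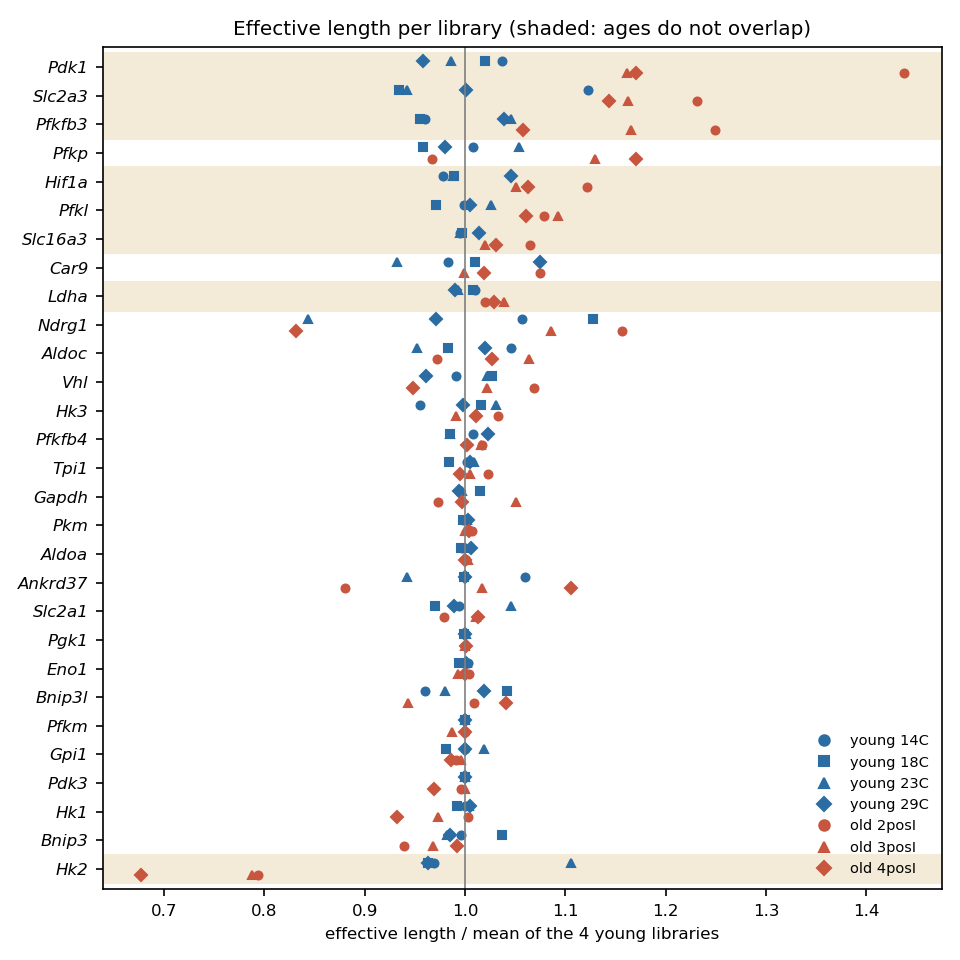
Effective length in each library divided by the mean of the 4 young libraries (x axis) for the 29 genes in which it varied (y axis), shaded where the ages did not overlap. In old mice Hk2 lies to the left, with a ratio of the age means of 0.753, and Pdk1, Slc2a3 and Pfkfb3 lie furthest to the right.

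Neighbouring pathways were read from lists of 105 further genes, of which 98 were tested. With edgeR 0 passed an adjusted p of 0.05, as with limma-voom, whereas DESeq2 called 8 (Slc2a6, Slc2a8, Pdk4, Rpia, Gys1, Os9, Crebbp and Plod1) and gave 4 no adjusted p. Of the 98, 22 had an unadjusted p under 0.05 (18.9% of all genes did), and the ages did not overlap in 5 genes that were higher and 8 that were lower in old mice (8.67% and 9.07% of all genes). Among 17 tested glycolytic enzymes and transporters, Slc2a6, a lysosomal hexose transporter of inflammatory macrophages, stood at 135, 119, 151 and 177 CPM in young and 86.6, 91.4 and 86.5 CPM in old mice (log2 fold change -0.72, SE 0.15, adjusted p = 0.0669, edgeR). Slc2a8, an intracellular glucose transporter, lay lower as well (log2 fold change -0.61, SE 0.15, adjusted p = 0.0936, edgeR). Slc2a5, a fructose transporter of microglia, overlapped between the ages, at 204, 276, 58.9 and 215 CPM in young and 305, 73.4 and 269 CPM in old mice (0.20, SE 0.56), and was named after its values were seen. Of 13 genes of pyruvate oxidation, Pdk4, the kinase of fasting and fat oxidation, was near 0, at 2.42, 0.492, 5.45 and 0.731 CPM in young and 0.119, 0.460 and 0 CPM in old mice, and Mpc2, a subunit of the mitochondrial pyruvate carrier, was at 0.33 (SE 0.12). In the pentose phosphate pathway (10 genes) Rpia, ribose phosphate isomerase, lay higher in old mice, at 1.91, 2.01, 2.55 and 2.52 CPM against 4.02, 5.32 and 4.79 CPM (log2 fold change 1.07, SE 0.23, adjusted p = 0.074, edgeR), and Prps2, on chromosome X, was at -0.48 (SE 0.23). Among 13 genes of glycogen and gluconeogenesis, Gys1, glycogen synthase, and Pgm2, phosphoglucomutase, were at -0.42 (SE 0.13) and -0.40 (SE 0.14).

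Of 16 HIF partners and regulators, Crebbp, a coactivator of HIF, stood at 73.5, 70.5, 60.6 and 74.6 CPM in young and 99.0, 98.1 and 112 CPM in old mice (log2 fold change 0.56, SE 0.12, adjusted p = 0.0672, edgeR). Os9, a lectin of the endoplasmic reticulum, was at -0.40 (SE 0.12). Of 29 tested further HIF targets, Vegfa, the angiogenic growth factor, was at 1.73, 0.604, 1.59 and 0.796 CPM in young and 2.77, 35.4 and 3.65 CPM in old mice (log2 fold change 3.56, SE 0.89, adjusted p = 0.0973, edgeR). It was highest in 3posI, and without that library its log2 fold change was 1.44. Plod1, a collagen lysyl hydroxylase, lay lower in every old library (-0.57, SE 0.15).

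Old mouse 3posI held the highest value of all 7 libraries for 13 of the 35 genes and the highest of the old mice for 22. When 3posI and 23C, the pair with the lowest P2ry12, were left out after the data had been seen, the ages, now 2 old and 3 young libraries, were apart for 18 of the 35 genes. Of the 35, 15 lay lower in old mice, against 19.6% of all genes, and 3 lay higher, against 18.0% of all genes. In either direction it was 51.4% of the 35 genes against 37.6% of all genes. The choice of the pair bears on this, since leaving out the highest old or the lowest young library moves a gene towards the lower side. Among the young mice, 23C was the lowest library for 11 of the 35 genes and the highest for 12. The median log2 fold change of the group was then -0.25. The genes added on the lower side were Hk1, Hk2, Pfkl, Slc16a1, Pdk1, Egln3, Vhl, Ndrg1, Ero1l and Ankrd37. Slc16a3 and Egln1 passed an adjusted p of 0.05 in that fit (edgeR), which called 0.998% of all genes.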

How the data were processed

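Bodipy+ microglia of 4 young and 3 old ischemic male mice were compared, with the age group and animal code taken from the sample labels and sex, ischemia and sorting from the labels' protocols and the study's methods. Because RNA input was low, cDNA was made with the Smart-seq2 protocol and amplified by PCR, non-stranded according to the labels. No molecular identifiers are named, so PCR copies are counted as reads. The authors checked reads with FastQC 0.11.5 (submitters' processing notes), removed adapters with skewer, aligned them by STAR to GRCm38 and estimated gene abundances by RSEM with GENCODE vM15. No version of STAR or RSEM is given in the sources used here. They deposited, per gene and library, the expected counts of RSEM, without normalization, which divide a read that fits several genes among them, TPM values, which are scaled within each library, and an effective length. FPKM values, also deposited, were not used.
For the tests the expected counts were rounded. A gene entered if any library had more than 10, and chromosomes X, Y and M were dropped as the study did, apart from X-linked genes described here, which had a fit of their own. TMM factors (0.952 to 1.05) and the quasi-likelihood test came from edgeR 4.0.16 under R 4.3.3, with age as the only term, and p values were adjusted by the Benjamini-Hochberg method over all genes. The study's own test was limma-voom, used here as an alternative. The biological coefficient of variation was 37.2%. The labels give no batch, and each library is 1 mouse. The order of values is that of the animal codes and has no meaning. For 4 against 3 mice, 0.0286 is the smallest p of an exact permutation test. The edgeR, limma-voom and DESeq2 fits were tested on simulated counts, drawn with dispersions that edgeR had estimated. DESeq2 made the largest share of false calls there and also recovered the largest share of the changed genes. The edgeR fit missed most of the changed genes, so a gene that did not pass is not thereby shown to be unchanged.
The genes described, the neighbouring pathway lists and the marker lists were chosen with earlier results of these data known. Itgam was left out of the microglial markers because its symbol has more than 1 identifier. Library values are given for genes that passed the test, genes whose ages did not overlap, sets of related enzymes and the 3 most abundant genes, and full statistics at least for the 8 genes with the smallest p. From neighbouring lists the 2 genes with the smallest p were named. Gene positions are those of GENCODE vM21 (GRCm38, newer than the authors' release), which lacks 224 of the 50686 identifiers.
Alternatives were limma-voom (limma 3.58.1), DESeq2 1.42.0, RLE and upper-quartile factors, the effective length as an offset, limma on log2(TPM + 1) and log2(TPM + 0.1), filterByExpr or no filter, chromosomes X, Y and M kept, reads of named near-identical copies added, and each library left out. Leaving out 23C and 3posI together, and the effective lengths without each library, were added after the data were seen.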

Additional observations from a re-analysis of the deposited data

How the results depend on the processing

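The 141 genes called over all genes became 1399 with DESeq2, 213 with the effective-length offset, 288 with no filter, 64 on log2(TPM + 1) and 71 on log2(TPM + 0.1), and 1 to 159 with 1 library left out. Of the 35 genes described, 1 was called in the main test, 5 with DESeq2, 2 with the effective-length offset (Slc2a3 and Egln1), 3 with no filter (Slc2a3, Slc16a3 and Egln1), 0 on either TPM scale, where Egln1 had adjusted p values of 0.0831 and 0.0781, 2 without 23C and 3posI (Slc16a3 and Egln1), and 0 to 1 with 1 library left out, the 1 being Egln1 without 3posI and Slc2a3 without 4posI. The number whose ages did not overlap was 6, and 6 to 13 with 1 library left out, highest without 23C, where 25.6% of all genes did not overlap, and 11 without 3posI, where 28.7% did not. It was 18 without both, where the median log2 fold change was -0.25 and 37.6% of all genes did not overlap.
Of the 35 genes, 23 kept the sign of their log2 fold change under every alternative, among them the 6 whose ages did not overlap, and 12 changed it under at least 1, with main values that did not pass the test. Hk2 was 0.082 with the effective-length offset. Tpi1 was -0.0038 with limma-voom, -0.036 with upper-quartile factors, -0.10 on both TPM scales, -0.021 with no filter and -0.19 without 23C and 3posI. Pgk1 was -0.0082 on both TPM scales, Hif1a -0.11 and Bnip3l -0.036. Without 23C and 3posI, Pgam1 was -0.16 and Hif1a -0.21. Pdk3 was 0.0022 with DESeq2, 0.0023 with RLE factors, 0.041 with the offset and 0.021 without 23C and 3posI. Ndrg1 was -0.38 with limma-voom, -0.034 with upper-quartile factors, -0.083 with the offset, -0.35 and -0.45 on log2(TPM + 1) and log2(TPM + 0.1), and -1.19 without 23C and 3posI. With 1 library left out, log2 fold changes were -0.16 to 1.13 for Aldoc, -0.16 to 0.082 for Tpi1, -0.15 to 0.037 for Gapdh, -0.0015 to 0.16 for Pgk1, -0.20 to 0.40 for Pgam1, -0.28 to 0.088 for Ldha, -0.065 to 0.045 for Pdk3, -0.20 to 0.32 for Hif1a, -0.036 to 0.12 for Bnip3l, -1.36 to 0.44 for Ndrg1 and -0.47 to 0.071 for Car9. The causes were not tested. Adding the reads of near-identical copies named after the gene turned the sign of none of the genes to which it applied. Copies under other names were not added. No paired analysis was possible because the labels give the mice of the 2 ages no shared numbers.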
